A study of Mus musculus with 3 samples.

Results

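Collagens and laminins were examined in nuclei of the lumbar dorsal root ganglion (DRG), the cluster of sensory neurons and their support cells beside the spinal cord. The members are every gene of the count tables whose symbol has the form of a collagen chain or a laminin chain, which gave 55 of 32227 genes, 44 collagens and 11 laminins. Nuclear RNA was counted by single nucleus RNA-seq in 3 libraries, 1 of them adult (mice of 3 months) and the other 2 aged (mice of 21 months). These are the ages of the sample labels, and the design text of the series gives a lower age for the aged mice. All 3 libraries came from L3 to L5 DRG of C57BL/6 mice, none with a transgene or treatment in the labels. The labels give the mice as male, whereas the methods of the study name aged mice as female. Xist, the RNA of the inactive X chromosome, was at 1398, 837 and 913 CPM (UMIs per fixed total of UMIs) in the adult and the 2 aged libraries, and the Y-linked gene Ddx3y was at 19.5, 12.6 and 7.51 CPM. The Xist level went against the label of male in each library. The study calls the libraries biological replicates, and the labels do not give the number of mice in each. Age cannot be told apart from the adult library itself.

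Collagens are trimers of alpha chains that are secreted and built into the matrix between cells. Fibrillar collagens (types I, III and V among them) form fibres, FACIT collagens decorate those fibres, beaded filament (type VI) and short chain (type VIII) collagens build finer networks, and type IV collagen forms the sheet of basement membranes. Laminins are trimers of an alpha, a beta and a gamma chain that make the other sheet of a basement membrane and bind receptors such as integrins and dystroglycan. In peripheral nerve, Schwann cells and satellite glia are covered by a basement membrane, and laminin alpha 2, encoded by Lama2, is known for its part in myelination.

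Barcodes with more than 1000 genes numbered 11518, 5130 and 2611, out of 4880733, 1315480 and 1229208 barcodes. The libraries held 167664164, 95647106 and 69045987 UMIs (counted molecules), of which 53.8%, 58.4% and 54.5% lay in the barcodes kept. Wherever 3 values are given, their order is adult, aged replicate 1, aged replicate 2. At most 1 of these barcodes was shared by any pair of libraries. Nuclei were placed in 12 classes by how many markers of a cell type had a UMI, with no collagen or laminin among the markers, and 13591 of 19259 nuclei received a class. The classes were satellite glial cell (SGC)-like, non-myelinating Schwann cell (NMSC)-like, myelinating Schwann cell (MSC)-like, 3 fibroblast-like kinds led by Slc47a1, Pax9 or Pdgfra, endothelial-like, mural-like, myeloid-like, B and T lymphocyte-like and neuron-like. The names rest on markers alone and were rebuilt here, which could by itself make values differ from those of the study. Levels are CPM, the UMIs of a gene scaled to a fixed total of UMIs of the class in that library, and were compared between classes for the same gene. The list of the Slc47a1 fibroblast kind summed to 9035 CPM or more in that class and to 787 CPM or less in every other class, and the NMSC list summed to 6416, 6635 and 7290 CPM in NMSC-like nuclei. That list also came to 3920, 4531 and 4684 CPM in SGC-like nuclei, so it did not set NMSC-like nuclei apart from them on its own. The list of satellite glia summed to 7390, 5188 and 4172 CPM in SGC-like nuclei but to 6673, 6003 and 3377 CPM in mural-like nuclei, and most of it was Cdh23, which was at 5396, 3565 and 2596 CPM in SGC-like nuclei, was at 1677 to 5901 CPM in the libraries of the other classes, and was not used to place nuclei. Without Cdh23 the list came to 1993, 1623 and 1575 CPM in SGC-like nuclei, the highest of the 12 classes in each library, followed by 1360, 1129 and 1175 CPM in mural-like nuclei. RNA free in the suspension, estimated from neuronal transcripts (from myelin transcripts in neuron-like nuclei), made up between 3.65% and 31.7% of UMIs in the 10 classes tested below, and was higher in the adult library than in both aged libraries in every one of them except neuron-like nuclei. Malat1, a nuclear RNA, was also higher in the adult library in all 12 classes, at 87842 CPM against 23170 and 23925 CPM in SGC-like nuclei.

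All 55 members had UMIs in the classes, from 22 for Col10a1 to 34867 for Lama2. A filter on low counts kept 43 of them for the comparison of classes, in which a class was set against the mean of the other 9 of the 10 classes that had 20 or more nuclei in each library. The 12 that did not pass, among them the cartilage collagen genes Col2a1 and Col10a1, Col7a1 of anchoring fibrils and the laminin gene Lama1, held between 22 and 1371 UMIs. Among the 430 pairs of a member and a class, 131 were higher and 94 were lower (edgeR quasi-likelihood test, Benjamini-Hochberg adjusted p under 0.05). Over all genes and classes 16.0% of pairs were higher and 11.2% lower.

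**Figure D1:**
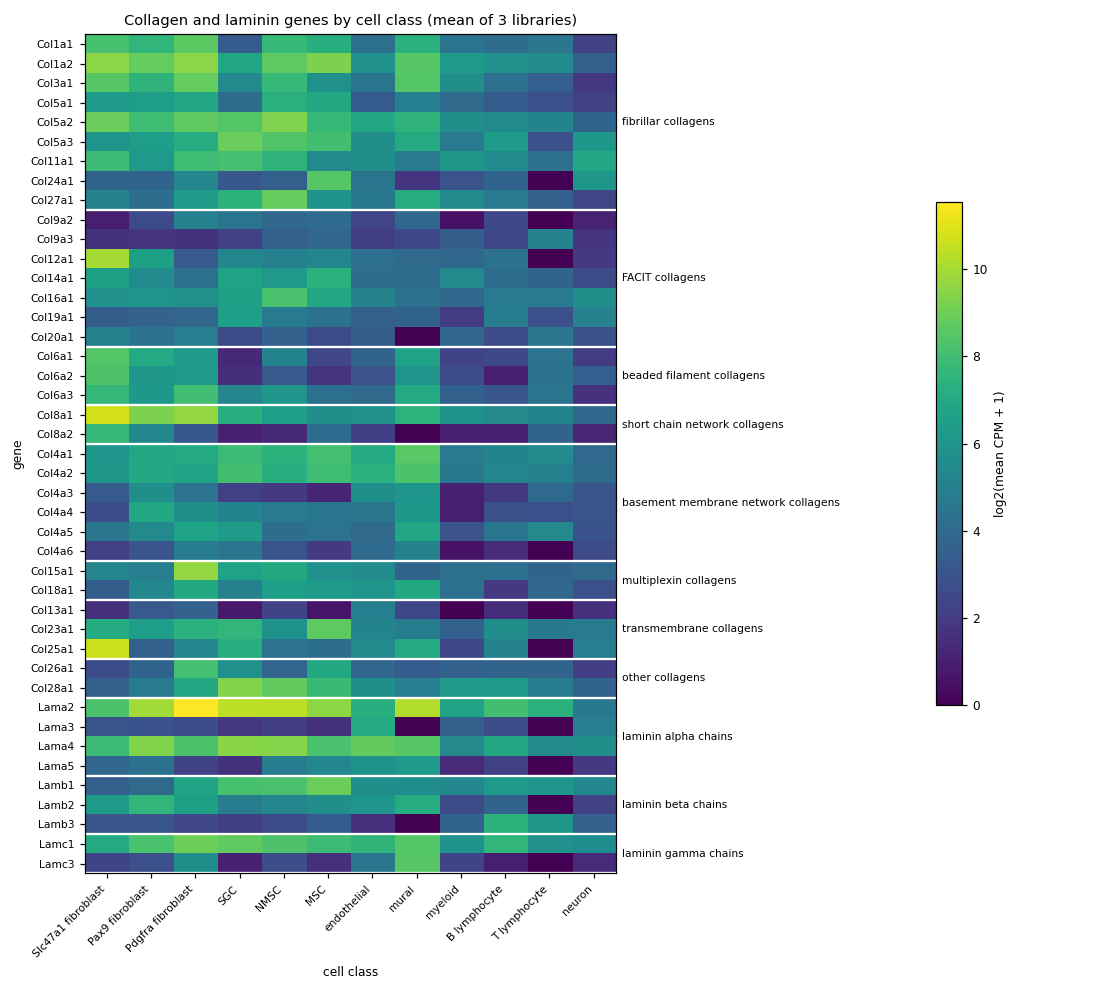
Mean level over 3 libraries, as log2(CPM + 1), of the 43 collagen and laminin genes that passed the filter on low counts (vertical axis, by family) in 12 cell classes (horizontal axis). Fibroblast-like classes were bright for fibrillar, type VI and type VIII collagens, and neuron-like nuclei were dark for most members.

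Collagens together took the largest share of UMIs in Slc47a1 fibroblast-like nuclei, at 8129, 7290 and 9585 CPM. In Pdgfra fibroblast-like nuclei they came to 5608, 5424 and 7074 CPM, and in neuron-like nuclei to 639, 604 and 583 CPM. The ranges of these 3 classes did not overlap. Laminins together came to 4683, 3651 and 3811 CPM in Pdgfra fibroblast-like nuclei, the highest of the 12 classes in each library, against 223, 226 and 230 CPM in neuron-like nuclei.

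Slc47a1 fibroblast-like nuclei stood out by Col25a1 and Col12a1. Of the 43 members, 17 were higher and 7 lower in this class, where 15.7% of the 12986 genes tested were higher and 12.1% lower. The type VI chains Col6a1, Col6a2 and Col6a3 were all higher, as were both type VIII chains, 6 of 9 fibrillar chains and 3 of 7 FACIT chains. These 3 type VI chains were higher in the Pax9 and Pdgfra kinds too. Both type VIII chains were also higher in the Pax9 kind, and 1 of the 2 in the Pdgfra kind. Col25a1 encodes a transmembrane collagen. Its level was 2042, 1180 and 1612 CPM in the 3 libraries, and the highest value in any other class was 220 CPM, from 3 UMIs in mural-like nuclei of aged replicate 2. The log2 difference from the other classes was 5.92 ± 0.25 (SE, n = 3 libraries, edgeR adjusted p = 2.99e-16). Col12a1, a FACIT collagen, was at 632, 956 and 1421 CPM, against 65.6 to 110 CPM in the next class, the Pax9 fibroblast-like nuclei (log2 difference 5.57 ± 0.21, adjusted p = 3.67e-17 by edgeR). Col8a2 was at 216, 206 and 191 CPM (5.75 ± 0.22, edgeR adjusted p = 4.31e-17). Its partner Col8a1 reached 1631, 1636 and 2005 CPM.

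Type VI collagen is built from several chains, and the class with the highest mean was not the same for all of them. Col6a2 was at 255, 339 and 367 CPM in Slc47a1 fibroblast-like nuclei (log2 difference 5.30 ± 0.26, edgeR adjusted p = 6.99e-15) and Col6a1 at 241, 331 and 474 CPM (4.73 ± 0.30, adjusted p = 1.1e-12). Pax9 fibroblast-like nuclei held 138, 124 and 127 CPM of Col6a1 and 90.4, 66.5 and 46.3 CPM of Col6a2. Col6a3 instead had its highest mean in the Pdgfra kind, at 194, 222 and 343 CPM (3.26 ± 0.28, edgeR adjusted p = 9.56e-10), and its 137, 246 and 235 CPM in the Slc47a1 kind overlapped that range.

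In Pax9 fibroblast-like nuclei 17 members were higher and 4 lower, where 11.3% of all genes tested were higher and 4.9% lower. Lamb2 encodes laminin beta 2. It was at 185, 201 and 197 CPM, and at 62.4 to 119 CPM in the other fibroblast-like kinds (log2 difference 2.72 ± 0.16, edgeR adjusted p = 5.87e-13). Col4a3, a type IV chain known from the basement membranes of kidney and lung, was at 35.3, 41.9 and 81.0 CPM (3.12 ± 0.40, edgeR adjusted p = 9.9e-07), a range that overlapped the 36.4 to 72.9 CPM of endothelial-like nuclei. Its neighbour Col4a4 was at 91.3, 123 and 147 CPM. Col6a1 (3.18 ± 0.34, adjusted p = 5.72e-08) and Col8a2 (3.18 ± 0.31, adjusted p = 8.12e-09 by edgeR) differed by similar amounts.

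Pdgfra fibroblast-like nuclei had 24 members higher and 1 lower, where 9.83% of all genes tested were higher and 2.65% lower, and the median log2 difference of the members was 1.48. Over all genes tested the median lay between -0.15 and 0.06 in every class. Lama2 was at 3571, 2672 and 2627 CPM, above every other class in each library (log2 difference 3.08 ± 0.31, edgeR adjusted p = 2.16e-08). Col15a1 encodes a multiplexin of the basement membrane zone and was at 909, 622 and 891 CPM, while the highest value in any other class was 197 CPM (4.17 ± 0.21, edgeR adjusted p = 3.35e-14). Col26a1 was at 254, 265 and 303 CPM (4.33 ± 0.25, adjusted p = 3.96e-13 by edgeR). MSC-like nuclei came next for this gene. Lamc3, the laminin gamma 3 chain, was at 47.7, 62.9 and 46.9 CPM (3.85 ± 0.39, edgeR adjusted p = 2.19e-08). The fibre-forming chains Col1a1, Col1a2 and Col3a1 were high in more than 1 fibroblast-like kind. Col1a1 was at 377, 263 and 552 CPM (3.02 ± 0.35, adjusted p = 3.01e-07) and Col3a1 at 436, 315 and 574 CPM (2.97 ± 0.38, edgeR adjusted p = 1.47e-06) in the Pdgfra kind. Col1a2 was at 924, 619 and 687 CPM in the Slc47a1 kind (2.30 ± 0.33, edgeR adjusted p = 4.02e-06) and overlapped its 874, 650 and 715 CPM in the Pdgfra kind. Lamc1, the common gamma chain, was at 557, 468 and 505 CPM in Pdgfra fibroblast-like nuclei (1.48 ± 0.18, adjusted p = 7.58e-07).

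**Figure D2:**
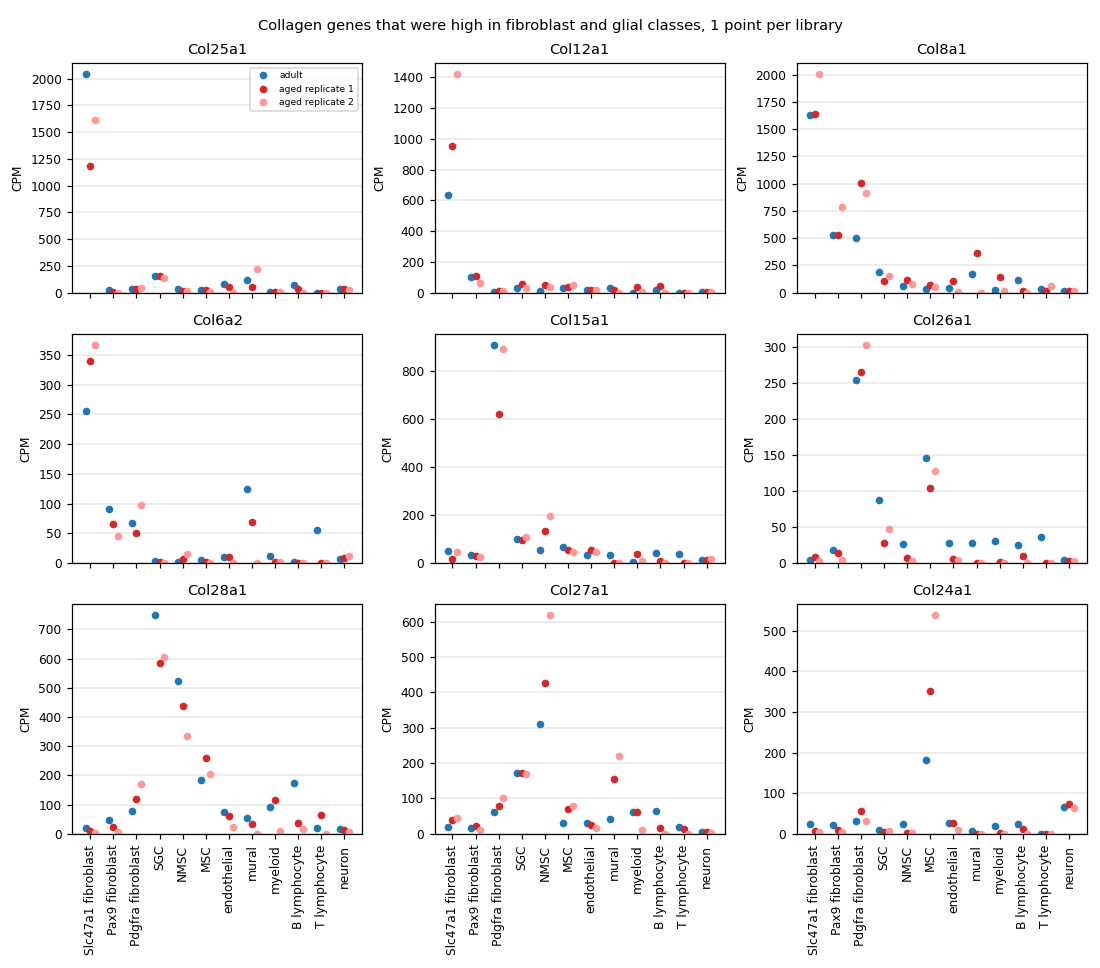
Level in CPM (vertical axis, from 0) of 9 collagen genes in 12 cell classes (horizontal axis), with 1 point for the adult library and 1 for each aged library. Col25a1 and Col12a1 stood apart in Slc47a1 fibroblast-like nuclei, Col15a1 in the Pdgfra kind, Col28a1 in SGC-like and NMSC-like nuclei, Col27a1 in NMSC-like nuclei and Col24a1 in MSC-like nuclei.

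Satellite glia form a sheath around each sensory neuron body. SGC-like nuclei had 22 members higher and 10 lower, where 17.6% of all genes tested were higher and 13.9% lower. Of the 6 type IV chains, 5 were higher, together with 4 of 7 FACIT chains. Col28a1 encodes a collagen known from the peripheral nervous system. It was at 749, 585 and 605 CPM (log2 difference 3.55 ± 0.25, edgeR adjusted p = 9.92e-12). NMSC-like nuclei followed with 522, 438 and 337 CPM, and the ranges of both classes did not overlap. Col5a3, a fibrillar chain, was at 471, 489 and 462 CPM (2.46 ± 0.23, edgeR adjusted p = 2.03e-09), and Lama4 at 673, 716 and 748 CPM (1.82 ± 0.29, adjusted p = 1.76e-05). Col19a1, a FACIT collagen, was at 170, 53.2 and 48.0 CPM (2.72 ± 0.26, edgeR adjusted p = 3.9e-09), so that its adult level lay apart from both aged levels.

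NMSC-like nuclei had 19 members higher and none of the 43 lower by edgeR, where 8.4% of all genes tested were higher and 3.84% lower. Of 9 fibrillar chains tested, 7 were higher, as were 3 of 4 laminin alpha chains. Col27a1, a fibrillar collagen first known from cartilage, was at 312, 427 and 618 CPM, against at most 220 CPM in a library of any other class (log2 difference 3.67 ± 0.23, edgeR adjusted p = 1.62e-11). Col28a1 (2.70 ± 0.28, adjusted p = 6.43e-08) and Col16a1 (2.47 ± 0.33, adjusted p = 5.3e-06) were higher by edgeR too. Col16a1 was at 145, 362 and 388 CPM.

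MSC-like nuclei had 20 members higher and 8 lower, where 17.7% of all genes tested were higher and 13.7% lower. Col24a1, a fibrillar collagen, was at 183, 351 and 538 CPM (log2 difference 4.58 ± 0.26, edgeR adjusted p = 1.75e-13). Neuron-like nuclei came next with 65.8, 72.3 and 64.2 CPM. Lamb1, the beta chain of most Schwann cell laminin, was at 356, 544 and 558 CPM (2.98 ± 0.27, edgeR adjusted p = 1.29e-09), and Col26a1 at 146, 104 and 128 CPM (3.19 ± 0.24, adjusted p = 3.67e-11). Lamb2 was the other beta chain with a higher call, at 45.4, 52.3 and 53.3 CPM.

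Endothelial-like nuclei had 8 members higher and 10 lower, where 12.6% of all genes tested were higher and 6.27% lower. The largest differences were those of Lama3, Col13a1 and Col4a3, and 5 of 9 fibrillar chains were lower. Lama3, the alpha 3 chain known from epithelia, was at 117, 118 and 158 CPM, against 26.2, 32.1 and 30.2 CPM in neuron-like nuclei, the next class by mean (log2 difference 4.61 ± 0.22, edgeR adjusted p = 4.36e-15). Col13a1, a transmembrane collagen, was at 37.1, 19.4 and 35.2 CPM (4.22 ± 0.54, edgeR adjusted p = 1.26e-06), on 19, 24 and 14 UMIs. Col4a3 was at 48.8, 36.4 and 72.9 CPM (3.19 ± 0.39, adjusted p = 3.55e-07). Lama5, the alpha chain of mature vessels, was at 50.8, 45.3 and 85.5 CPM (2.84 ± 0.32, edgeR adjusted p = 7.28e-08).

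Mural-like nuclei, from the pericytes and smooth muscle of vessels, numbered 50, 14 and 4 and entered the test only when classes of 3 or more nuclei were allowed, a choice made after seeing the data. In that fit 14 members were higher in mural-like nuclei, where 4.8% of 12532 genes were higher. Lamc3 was at 340, 188 and 587 CPM, above every other class in each library, with a log2 difference of 6.39 ± 0.46 (edgeR adjusted p = 4.18e-12). Col4a1 was at 472, 291 and 367 CPM, which overlapped the 292 CPM of the MSC-like class in the adult library.

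Laminin chains of the basement membrane differed in where they were high. Lama2 was called higher in 5 classes, the Pdgfra and Pax9 fibroblast-like kinds and SGC-like, NMSC-like and MSC-like nuclei. SGC-like nuclei held 1341, 1387 and 1239 CPM and NMSC-like nuclei 1337, 1252 and 1395 CPM, ranges that overlapped. Lama4 was at 261 to 375 CPM in the Pdgfra kind and at 578, 518 and 829 CPM in the Pax9 kind. Lama5 stayed at or under 2.79 CPM in SGC-like nuclei in every library. Lamb1 was at 284 to 300 CPM in SGC-like nuclei and at or under 16.9 CPM in the Slc47a1 fibroblast-like kind. Lamb2 showed 62.4 to 91.3 CPM in that kind and 24.6 to 33.2 CPM in SGC-like nuclei.

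**Figure D3:**
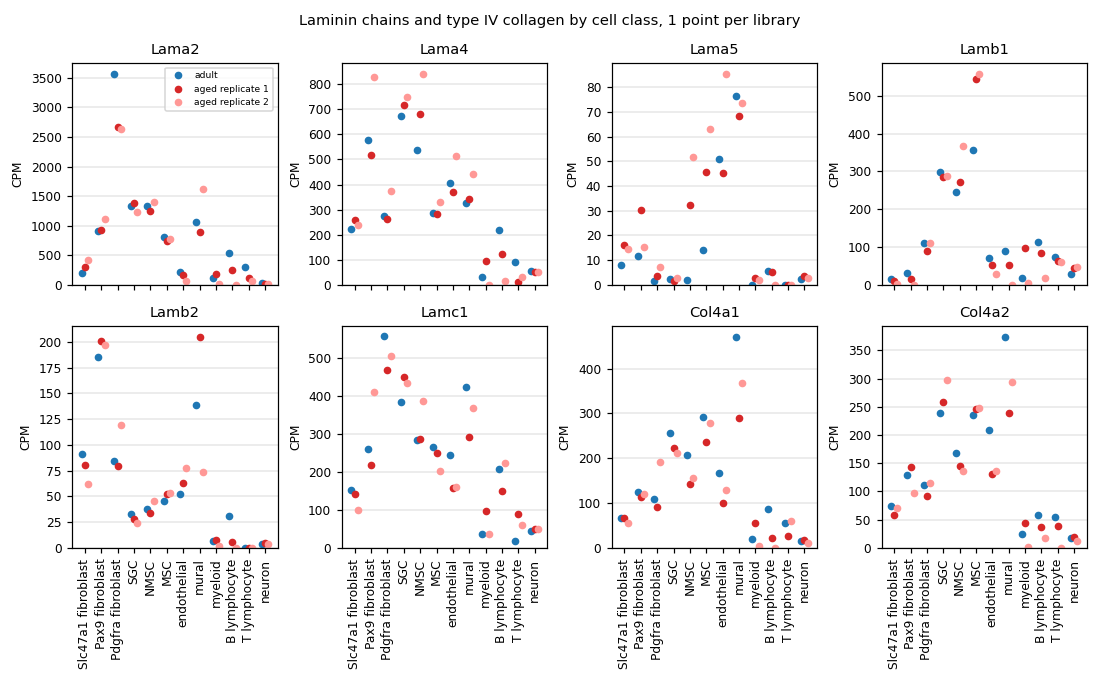
Level in CPM (vertical axis, from 0) of 6 laminin chains and 2 type IV collagen chains in 12 cell classes (horizontal axis), with 1 point for each library. Among the 10 classes tested, Lama2 peaked in Pdgfra fibroblast-like nuclei, Lamb2 in the Pax9 kind and Lamb1 in MSC-like nuclei. Col4a1 and Col4a2 followed each other over those classes.

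The 6 type IV chains lie in 3 pairs of neighbouring genes on opposite strands. Col4a1 (chromosome 8, 11198423 to 11312826, minus strand, GENCODE on GRCm38) and Col4a2 (11312805 to 11449287, plus strand) have starts 21 bases apart. They encode the chains of the most common type IV trimer. Over the 10 classes tested, their mean levels correlated with Pearson's r = 0.991 on the log2(CPM + 1) scale (Spearman's rho = 0.964), given as a description since the classes share libraries and depth. Col4a2 was highest in SGC-like nuclei by mean among those 10, at 239, 259 and 297 CPM (log2 difference 1.96 ± 0.18, edgeR adjusted p = 1.31e-09), and Col4a1 in MSC-like nuclei, at 292, 237 and 280 CPM (1.86 ± 0.23, adjusted p = 4.14e-07). These ranges overlapped between both classes for each gene. Col4a3 and Col4a4, on chromosome 1 with starts 72 bases apart, correlated less closely over the same 10 classes (r = 0.594, rho = 0.600). SGC-like nuclei held 38.0, 34.5 and 35.2 CPM of Col4a4 against 2.65, 6.91 and 1.12 CPM of Col4a3, whereas endothelial-like nuclei held 27.4, 28.3 and 12.6 CPM of Col4a4 against 48.8, 36.4 and 72.9 CPM of Col4a3. Col4a5 (X chromosome, 141475385 to 141689234, plus strand) and Col4a6 (141165403 to 141474076, minus strand), with starts 1309 bases apart, gave r = 0.702 and rho = 0.539. These levels are not per length, so only the change of each gene between classes can be read from them.

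**Figure D4:**
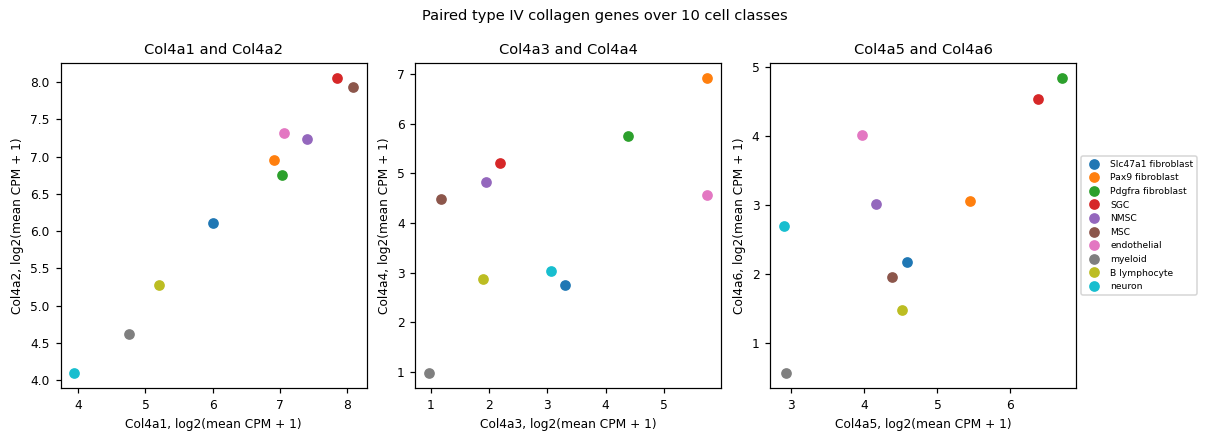
Mean level over 3 libraries, as log2(CPM + 1), of the first gene of each type IV collagen pair (horizontal axis) against its neighbour (vertical axis), with 1 point for each of 10 cell classes. Col4a1 and Col4a2 lie close to a line (r = 0.991), Col4a3 and Col4a4 (r = 0.594) and Col4a5 and Col4a6 (r = 0.702) scatter more.

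The windows of 300 bases around the start are shown for the pair whose levels went together and for the pair on the X chromosome, from RefSeq on GRCm38.p6, each in the direction of its own gene. Capitals mark CCAAT (the CCAAT box) and GGGCGG (the GC box) on either strand, which do not overlap each other in these windows. The Col4a1 window (chr8:11312777-11313076, minus strand) and the Col4a2 window (chr8:11312555-11312854, plus strand) share 78 bases.
Col4a1: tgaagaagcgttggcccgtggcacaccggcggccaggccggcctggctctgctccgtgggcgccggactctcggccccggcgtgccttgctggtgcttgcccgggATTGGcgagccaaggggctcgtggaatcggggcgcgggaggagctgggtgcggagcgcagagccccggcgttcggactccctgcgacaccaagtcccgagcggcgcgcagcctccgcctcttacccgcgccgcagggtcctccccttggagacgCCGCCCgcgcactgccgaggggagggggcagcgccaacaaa
Col4a2: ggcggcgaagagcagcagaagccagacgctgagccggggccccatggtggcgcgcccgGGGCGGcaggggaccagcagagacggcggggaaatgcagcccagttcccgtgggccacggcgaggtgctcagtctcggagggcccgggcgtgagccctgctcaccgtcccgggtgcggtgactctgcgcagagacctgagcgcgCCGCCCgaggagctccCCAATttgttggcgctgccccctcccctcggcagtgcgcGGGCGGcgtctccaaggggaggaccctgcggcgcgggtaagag
Col4a5 (chrX:141475169-141475468, plus strand): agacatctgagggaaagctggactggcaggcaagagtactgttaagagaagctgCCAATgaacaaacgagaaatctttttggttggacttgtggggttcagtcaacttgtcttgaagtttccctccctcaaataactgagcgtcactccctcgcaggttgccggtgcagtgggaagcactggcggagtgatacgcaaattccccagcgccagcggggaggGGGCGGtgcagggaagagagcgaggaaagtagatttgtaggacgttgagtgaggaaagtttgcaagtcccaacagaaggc
Col4a6 (chrX:141474027-141474326, minus strand): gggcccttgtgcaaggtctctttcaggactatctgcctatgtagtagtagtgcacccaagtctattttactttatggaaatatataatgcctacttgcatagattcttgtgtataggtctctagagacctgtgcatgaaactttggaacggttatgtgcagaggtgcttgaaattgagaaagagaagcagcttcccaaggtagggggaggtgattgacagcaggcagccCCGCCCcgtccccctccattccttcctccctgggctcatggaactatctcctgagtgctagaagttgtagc
The RefSeq table held windows for 40 of the 55 members, 44 windows in all. GGGCGG was in 26 of these 44 (59.1%) and in 35.7% of all 32851 windows of 300 bases. CCAAT was in 14 (31.8%) against 37.4% of all windows, and TATAAA in 5 (11.4%) against 13.6%. A match is a description of the letters and not of a bound site.

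Neuron-like nuclei had 3 members higher and 30 lower, where 33.6% of all genes tested were higher and 26.5% lower, and the median log2 difference of the members was -1.97. The 3 higher members were Lama3 (2.54 ± 0.21, edgeR adjusted p = 1.76e-10), Col24a1 (2.05 ± 0.28, adjusted p = 6.46e-07) and Col19a1 (1.53 ± 0.28, adjusted p = 3.45e-05). Neuron kinds were told apart by markers and are given as levels without a test. Col24a1 was at 153, 116 and 131 CPM in large-fiber neuron-like nuclei. It was at 87.2, 123 and 136 CPM in peptidergic nuclei but at or under 7.33 CPM in non-peptidergic nuclei. Col11a1 was at 234, 186 and 176 CPM in large-fiber nuclei and at or under 32.2 CPM in the peptidergic and non-peptidergic kinds. Lamb1 was at 105, 131 and 143 CPM in peptidergic and at 6.55 to 9.96 CPM in large-fiber nuclei, so its order over these kinds was the opposite of that of Col11a1. Lama2, at 33.6, 21.3 and 18.7 CPM in all neuron-like nuclei, lay near the 30.2, 29.1 and 19.6 CPM that the free RNA would give at its estimated share of 14.3%, 17.1% and 18.6% in this class.

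Myeloid-like nuclei had no member higher of 43 (edgeR, 28 of 43 at an unadjusted p under 0.05 in either direction) and 20 lower, where 21.5% of all genes tested were higher and 19.1% lower. B lymphocyte-like nuclei had 1 higher and 4 lower, where 11.4% of all genes tested were higher and 8.66% lower. The higher member was Lamb3, a laminin beta chain known from epithelia, at 92.1, 235 and 172 CPM (log2 difference 4.65 ± 0.40, edgeR adjusted p = 5.44e-10). T lymphocyte-like nuclei, which numbered 25, 32 and 11, entered only the fit with classes of 3 or more nuclei, added after seeing the data. Lamb3 was higher in them too in that fit (3.65 ± 0.88, edgeR adjusted p = 0.0043). Lamb3 (chromosome 1, 193207699 to 193343878, plus strand) is overlapped on its own strand by the annotated gene 4930570N18Rik and on the other by Hsd11b1 and G0s2, and how the counting dealt with overlaps is not stated, so its level is uncertain. In all, 19 of the 55 members overlap another gene of the count tables, and 4 of them, Lamb3, Col20a1, Col24a1 and Col26a1, do so on the same strand, so the levels of Col24a1 and Col26a1 given here are uncertain in the same way.

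Genes that work with collagens and laminins were counted from fixed lists of basement membrane partners, receptors, synthesis and processing enzymes, and turnover enzymes and inhibitors, 61 genes of which 56 were tested. Of 21 synthesis and processing genes, 13 were higher in Slc47a1 fibroblast-like, 10 in Pax9 and 9 in Pdgfra fibroblast-like nuclei, where the share over all genes was 15.7%, 11.3% and 9.83%. In SGC-like nuclei 5 were higher and 5 lower, where 17.6% of all genes were higher and 13.9% lower. In neuron-like nuclei 2 were higher and 11 lower, where 33.6% of all genes were higher and 26.5% lower. Plod2, a lysyl hydroxylase of collagen, was at 235, 392 and 507 CPM in Slc47a1 fibroblast-like nuclei, and Adamts2, which trims the ends of procollagen, at 323, 392 and 547 CPM. Of 19 receptor genes, 12 were higher and 4 lower in MSC-like nuclei (17.7% of all genes higher and 13.7% lower). In NMSC-like nuclei 10 were higher and 2 lower (8.4% and 3.84% of all genes), in the Pax9 kind 10 and 1 (11.3% and 4.9%), and in SGC-like nuclei 8 and 2 (17.6% and 13.9%). In neuron-like nuclei 5 receptor genes were higher and 10 lower, a share of higher genes no greater than the 33.6% of all genes, of which 26.5% were lower. In the Slc47a1 kind 3 receptor genes were higher and 6 lower, where 15.7% of all genes were higher and 12.1% lower. Dag1, which encodes dystroglycan, was at 797, 949 and 900 CPM in MSC-like nuclei. Itga7, a laminin-binding integrin chain, was at 296, 239 and 240 CPM in SGC-like nuclei. Of 9 basement membrane partners, 6 were higher in the Pax9 kind and 5 in NMSC-like nuclei, and of 7 turnover genes tested 4 were higher in the Pax9 kind. The share of all genes higher was 11.3% in the Pax9 kind and 8.4% in NMSC-like nuclei.

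The same members were then compared between aged and adult libraries within each class. The edgeR test rests on 2 aged libraries against 1 adult library, with 1 residual degree of freedom, and the lone adult library is assumed to vary like the aged ones. The quasi-likelihood fit borrows variance over all genes of a class, so its small p-values rest mostly on that shared variance. The weight of the shared variance was not the same in each class, so counts of calls are not strictly comparable between classes. Over 10 classes, 48 of 345 pairs of a member and a class passed, 24 higher and 24 lower in aged nuclei, in 29 members. Over all genes 1.28% of pairs were higher and 3.37% lower. The same 345 pairs gave 9 calls with DESeq2, which gave no adjusted p for 76 of them. In 1 fit over all classes 8 pairs passed, from another set of pairs because genes were filtered over all classes together.

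In SGC-like nuclei 14 of 43 members passed, 7 higher and 7 lower, where 10.2% of 14403 genes passed, 3.94% higher and 6.24% lower. Col19a1 fell from 170 CPM in the adult library to 53.2 and 48.0 CPM in the aged libraries (log2 change -1.90 ± 0.17, edgeR adjusted p = 2.62e-27). Col26a1 fell from 87.5 to 27.6 and 48.0 CPM (-1.45 ± 0.19, edgeR adjusted p = 1.6e-12). Neither aged library overlapped the adult level for these genes. In free RNA they were lower in both aged libraries too, Col19a1 at 46.2, 26.1 and 21.9 CPM and Col26a1 at 17.7, 9.22 and 5.83 CPM. Both had negative log2 changes in MSC-like, endothelial-like and neuron-like nuclei as well, where only Col26a1 in neuron-like nuclei passed. In the Pdgfra kind Col26a1 was not lower in the aged libraries, at the levels given above. The neighbours Col4a6 and Col4a5 both rose. Col4a6 went from 3.45 CPM (30 UMIs) to 27.9 and 35.2 CPM (2.99 ± 0.34, edgeR adjusted p = 4.19e-16). Col4a5 went from 42.9 to 102 and 102 CPM (1.08 ± 0.18, adjusted p = 1.06e-07), and Col5a2, a fibrillar chain, from 203 to 413 and 417 CPM (0.86 ± 0.14, edgeR adjusted p = 2.4e-08). Among the common basement membrane chains only Col4a1 passed, at 256 CPM in the adult library and 223 and 213 CPM in the aged libraries, while Lama2, Lama4, Lamb1, Lamb2, Lamc1 and Col4a2 did not. With a stricter marker gate, which kept 1473, 259 and 134 of the 2437, 385 and 196 nuclei, none of the 43 passed by edgeR, and with DESeq2 5 passed. The median nucleus of the class held 3268, 7268 and 8132 UMIs, and with nuclei thinned to 1500 UMIs 6 members passed. The fibroblast marker list came to 228, 202 and 214 CPM in it with a UMI for all 10 markers. The markers of large-fiber neurons (533, 798 and 646 CPM, a UMI for all 5) and the NMSC list given above were higher in both aged libraries. So were the lists of neurons (977, 1244 and 1167 CPM, a UMI for all 10) and of Th neurons (314, 342 and 337 CPM). The list of peptidergic neurons was lower in both (205, 195 and 138 CPM). The part of these lists in the differences was not tested. Of 19 receptor genes tested, 2 rose and 1 fell. Sgcd (0.49 ± 0.11, edgeR adjusted p = 0.000205) and Itga1 (0.60 ± 0.16, edgeR adjusted p = 0.00252) rose and Itga7 fell (-0.48 ± 0.14, edgeR adjusted p = 0.00708). Itga1 was at 104, 172 and 183 CPM in the class and at 38.8, 230 and 188 CPM in free RNA, and it did not pass once free RNA was subtracted (0.33, edgeR adjusted p = 0.245). Of 20 synthesis and processing genes 2 fell, the collagen prolyl hydroxylase gene P4ha3 (-0.71 ± 0.17, adjusted p = 0.000619) and the lysyl hydroxylase gene Plod1 (-0.83 ± 0.21, edgeR adjusted p = 0.00121). Of 6 turnover genes tested 2 rose, Mmp16 (1.17 ± 0.22, edgeR adjusted p = 5.52e-06) and Timp2 (0.44 ± 0.15, edgeR adjusted p = 0.031).

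In NMSC-like nuclei 10 of 33 members tested passed, 9 higher and 1 lower, where 3.56% of 9440 genes passed, 1.3% higher and 2.26% lower. Of the 9 fibrillar chains tested, 4 rose. Col1a1 rose from 27.0 CPM (13 UMIs) in the adult library to 240 and 369 CPM in the aged libraries (log2 change 3.35 ± 0.51, edgeR adjusted p = 1.52e-08). Col5a1 rose from 37.4 to 167 and 269 CPM (2.39 ± 0.48, adjusted p = 6.81e-05 by edgeR) and Col18a1, a multiplexin of basement membranes, from 27.0 to 142 and 100.4 CPM (2.08 ± 0.50, edgeR adjusted p = 0.00263). Col6a1 had no UMI in the adult class and 27 and 23 UMIs in the aged ones, a mean level at least 8.67-fold higher than the adult floor of 3 counts (edgeR adjusted p = 4.24e-05). Taken singly, aged replicate 1 lay at least 5.40-fold and aged replicate 2 at least 11.9-fold above that floor. Col19a1 fell from 68.6 CPM (33 UMIs) to 2.50 and 6.47 CPM, which were 2 UMIs in each aged library (edgeR adjusted p = 4.36e-06), and it had fallen in SGC-like nuclei too. The adult level was 27.5 times that of aged replicate 1 (exact 95% counting interval 7.03 to 236) and 10.6 times that of aged replicate 2 (2.71 to 91.1). The fibroblast marker list came to 258, 412 and 243 CPM in NMSC-like nuclei, with a UMI for all 10 markers, against 7314 CPM or more in every fibroblast-like kind and library. The markers of the Pdgfra fibroblast kind came to 179, 232 and 265 CPM in it and those of myelinating Schwann cells to 264, 424 and 405 CPM, each with a UMI for all 10, so both lists were higher in both aged libraries, and their part in the result was not tested. The free RNA share of this class was 30.3%, 18.7% and 10.2%, and 13 members passed after free RNA was subtracted. With the stricter gate 6 passed, with more than 1500 genes per nucleus 5, thinned to 1500 UMIs 4, in 1 fit over all classes 2 and with DESeq2 1, which gave no adjusted p for 3 of the 10. Of 6 basement membrane partners tested 2 rose, Hspg2, which encodes perlecan (1.32 ± 0.39, edgeR adjusted p = 0.0262), and Ntn4 (2.40 ± 0.72, adjusted p = 0.0302), as did 2 of 19 synthesis and processing genes, P3h2 and Adamts2.

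In MSC-like nuclei 7 of 38 members tested passed, 6 higher and 1 lower, where 3.0% of 11928 genes passed, 0.981% higher and 2.02% lower. Col16a1 rose from 26.1 CPM in the adult library to 174 and 162 CPM in the aged libraries (log2 change 2.52 ± 0.26, edgeR adjusted p = 0.000139). Col18a1 rose from 16.8 to 117 and 108 CPM (2.57 ± 0.29, edgeR adjusted p = 0.000269). Both aged libraries lay well above the adult library for both genes, which passed in NMSC-like nuclei too. Col4a4 rose from 5.05 CPM (6 UMIs) to 33.6 and 25.4 CPM (2.41 ± 0.51, edgeR adjusted p = 0.021), and Lama5 from 14.3 to 45.7 and 63.0 CPM (1.69 ± 0.38, adjusted p = 0.0294). Col14a1, a FACIT collagen, fell from 212 to 128 and 144 CPM (-0.83 ± 0.19, edgeR adjusted p = 0.0335). Scaled with the size factors of DESeq2, 3 members passed in this class, and in 1 fit over all classes 0 passed. The markers of Th neurons (90.8, 182 and 166 CPM) and of peptidergic neurons (270.0, 297 and 332 CPM), each with a UMI for all 5, and those of NMSC (1072, 1478 and 1102 CPM, a UMI for all 7) were higher in both aged libraries of this class. The free RNA share came to 21.3%, 14.4% and 11.3% and 3 myelin transcripts to 41415, 12211 and 11818 CPM, and the part of these in the result was not tested. Of 6 basement membrane partners tested, Ntn4 rose (1.82 ± 0.41, edgeR adjusted p = 0.0294) and Sparc, a collagen-binding matrix protein, fell in MSC-like nuclei (-0.83 ± 0.17, edgeR adjusted p = 0.0174).

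**Figure D5:**
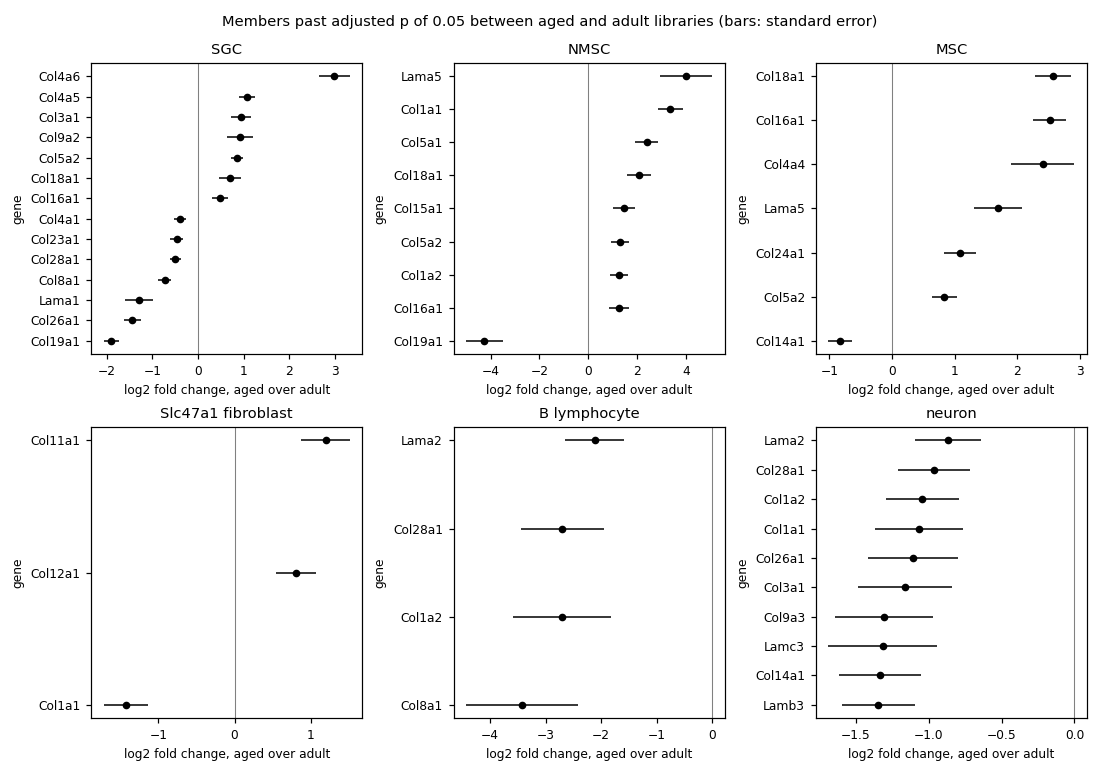
Log2 fold change of aged over adult libraries (horizontal axis) with its standard error for each member (vertical axis) past an adjusted p of 0.05, in the 6 classes with such members. Col6a1 in NMSC-like nuclei, which had no adult UMI, is not drawn. The 14 members of SGC-like nuclei split evenly, NMSC-like and MSC-like members were mostly higher in aged libraries, and all those of neuron-like and B lymphocyte-like nuclei were lower.

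In Slc47a1 fibroblast-like nuclei 3 of 27 members tested passed, where 5.42% of 8439 genes passed, 1.16% higher and 4.25% lower. Col1a1 fell from 478 CPM in the adult library to 179 and 206 CPM in the aged libraries (log2 change -1.43 ± 0.29, edgeR adjusted p = 5.88e-05). Its partner Col1a2 was at 924 CPM against 619 and 687 CPM and did not pass. Col11a1 rose from 120 to 259 and 334 CPM (1.19 ± 0.32, edgeR adjusted p = 0.00528) and Col12a1 from 632 to 956 and 1421 CPM (0.80 ± 0.26, edgeR adjusted p = 0.0454). In this class the markers of the Pax9 kind came to 1043, 1626 and 1403 CPM and those of the Pdgfra kind to 951, 1364 and 1359 CPM, each with a UMI for all 10 and higher in both aged libraries, and the part of these lists was not tested. The free RNA share was 11.9%, 6.43% and 3.94%, and 3 members passed after free RNA was subtracted. With DESeq2 and in 1 fit over all classes 0 members passed. Sparc (-1.57 ± 0.28, edgeR adjusted p = 1.59e-06) and the cross-linking enzyme gene Loxl2 (-2.19 ± 0.61, adjusted p = 0.00934) fell.

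No member passed by edgeR in Pax9 fibroblast-like (3 of 38 at an unadjusted p under 0.05), Pdgfra fibroblast-like (6 of 37), endothelial-like (3 of 35) and myeloid-like nuclei (0 of 23). Over all genes 0.125%, 1.62%, 0.189% and 4.17% passed in these classes. DESeq2 gave 0 members in each of them, with no adjusted p for 13 of 37 in the Pdgfra kind, 25 of 35 in endothelial-like and 11 of 23 in myeloid-like nuclei. With the stricter gate 3 members passed in the Pdgfra kind and 1 in endothelial-like nuclei, 1 passed in the Pdgfra kind with free RNA subtracted and 1 in endothelial-like nuclei thinned to 1500 UMIs, and 1 passed in myeloid-like nuclei with no filter on low counts and 1 in the fit over all classes. In the Pdgfra kind, Mmp2, a gelatinase, rose from 107 CPM to 204 and 545 CPM (1.67 ± 0.38, edgeR adjusted p = 0.00164), and did not pass with free RNA subtracted (edgeR adjusted p = 0.0797). Its level in free RNA was 7.34, 9.53 and 8.58 CPM. The myelinating Schwann markers of this class, at 226, 472 and 682 CPM with a UMI for all 10, and 3 myelin transcripts, at 1111, 1360 and 1869 CPM, were also higher in both aged libraries and highest in aged replicate 2. So were the markers of the Pax9 kind, at 953, 1183 and 1606 CPM. The markers of the Pdgfra kind itself were lower in both aged libraries, at 5394, 3731 and 4457 CPM. The part of these lists in the result was not tested.

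In neuron-like nuclei 10 of 54 members tested passed and all 10 were lower in aged libraries, where 8.03% of 21342 genes passed and 6.54% were lower. The mix of neuron kinds was not the same in each library. Of 3640, 2058 and 1149 nuclei, 644, 441 and 161 were large-fiber neuron-like and 255, 59 and 83 Th neuron-like. The part of this mix in the result was not tested. Each of the 10 members had a higher mean level in some other class, as did all 55 members. Some marker lists of other cell types were lower in both aged libraries of this class too, at 481, 427 and 235 CPM for glia (a UMI for all 5). Endothelial markers were at 85.2, 56.2 and 48.2 CPM, mural at 114, 79.5 and 89.2 CPM and myeloid at 77.8, 30.6 and 31.3 CPM (a UMI for all 10 of each). The fibroblast list was at 198, 202 and 198 CPM. Other lists were higher in both aged libraries, those of NMSC (1130, 1228 and 1176 CPM) and of the Slc47a1 (104, 116 and 124 CPM) and Pdgfra fibroblast kinds (56.0, 69.1 and 60.7 CPM). The part of these lists in the result was not tested. Lama2, at the levels given above for these nuclei, changed by -0.87 ± 0.23 (log2, edgeR adjusted p = 0.00355) and was at 212, 171 and 105 CPM in free RNA. Col28a1 was at 16.9, 11.6 and 7.23 CPM (-0.96 ± 0.25, adjusted p = 0.00258 by edgeR) and at 83.8, 53.9 and 35.9 CPM in free RNA. Col1a2 (-1.04 ± 0.25, adjusted p = 0.000906), Col14a1 (-1.34 ± 0.28, adjusted p = 9.18e-05), Lamb3 (-1.34 ± 0.25, adjusted p = 3.75e-06) and Col9a3 (-1.31 ± 0.34, edgeR adjusted p = 0.00273) were lower too. The free RNA level of all 10 was lower in both aged libraries than in the adult library, as it was for 44 of the 55 members. After free RNA was subtracted, 0 of these members passed by edgeR in neuron-like nuclei. The share of all genes that passed after this subtraction is not given here, so the loss cannot be called particular to the members. Not every difference became smaller. Lamb3 was at 18.2, 7.63 and 7.98 CPM, of which free RNA would give 2.21, 1.49 and 1.28 CPM, and its log2 change after subtraction was -1.41 (edgeR adjusted p = 0.238). Col9a3 was at 3.65, 1.51 and 1.69 CPM, with 0.606, 0.498 and 0.498 CPM from free RNA, and its change after subtraction was -1.54 (edgeR adjusted p = 0.350).

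In B lymphocyte-like nuclei 4 of 17 members tested passed, all lower in aged libraries, where 5.17% of 6000 genes passed and 4.53% were lower. Lama2 was at 547, 246 and 0 CPM (log2 change -2.11 ± 0.53, edgeR adjusted p = 0.00326). The class numbered 117, 61 and 22 nuclei. In aged replicate 2 it held 58084 UMIs, for which the floor of 3 counts lies at 51.6 CPM. Col28a1 (-2.70 ± 0.75, adjusted p = 0.00941), Col8a1 (-3.43 ± 1.01, adjusted p = 0.017) and Col1a2 (-2.70 ± 0.88, edgeR adjusted p = 0.0434) were the others. The summed markers of glia (1164, 528 and 51.6 CPM, with a UMI for all 5) moved with them, as did those of fibroblasts, at 672, 155 and 86.1 CPM with a UMI for all 10, and the estimated free RNA share at 22.1%, 11.2% and 5.96%, and their part in the result was not tested.

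Whether an age difference differed between classes was tested as the difference of a class from the mean of the other 9, with the library as a block. None of 430 pairs passed by edgeR, and 32 had an unadjusted p under 0.05. The background was low as well, with 0.0% of 12986 genes passing in the Slc47a1 kind, NMSC-like, MSC-like and neuron-like nuclei, 0.0385% in SGC-like, 0.0231% in the Pax9 kind, 0.0077% in the Pdgfra kind, 0.169% in endothelial-like, 0.139% in B lymphocyte-like and 2.33% in myeloid-like nuclei. The smallest unadjusted p belonged to Col24a1 in MSC-like nuclei (log2 difference 2.61 ± 0.45, adjusted p = 0.167 by edgeR), followed by Col1a1 in NMSC-like nuclei (4.11 ± 0.78, edgeR adjusted p = 0.156). The age differences given for each class are not shown to be particular to it.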

How the data were processed

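Nuclei were isolated from lumbar DRG and profiled with the PIP-seq based Illumina Single Cell 3' kit. The authors aligned the reads and counted UMIs with Pipseeker on mm10, and deposited whole-number counts per gene and barcode for each library, not normalized. The use of strand and the treatment of overlapping genes are not given in the sources used here. Barcodes with more than 1000 genes were kept. Nuclei were classed by marker genes, and those without a clear lead of 1 lineage were set aside, as possible doublets among others, with no doublet caller run. The scoring rule of this step was set after seeing the data. The members and the gene lists were chosen with earlier results of these data known, and support nothing on their own.

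Counts were summed per class and library and fitted over all genes with edgeR 4.0.16 in R 4.3.3 (TMM, filterByExpr, quasi-likelihood F-test, Benjamini-Hochberg adjustment, threshold 0.05) for those classes that held 20 or more nuclei in every library. The model for classes held the library as a block, and the model for age was fitted within each class. The scripts were tested on simulated data. In simulated SGC-like sums at a dispersion of 0.05, the age test recovered 12% of 2-fold and 83% of 4-fold changes. The test of an age difference between classes recovered 1.22% and 67.4%, so a lack of calls does not show a lack of difference. The dispersion was chosen and not fitted to these data, so these shares need not be those of the real tests. In SGC-like nuclei the real age test also called changes under 2-fold, such as Timp2 (log2 change 0.44 ± 0.15). Named members were 15 taken in any case (common laminin chains and types I, III, IV, VI and XXVIII), per class the 3 largest higher differences with at least 20 UMIs, and the 5 smallest adjusted p for age. Other members and pathway genes named with values were chosen after their values were seen or had the smallest adjusted p of their list. Free RNA was read from barcodes with at most 100 UMIs. Where a gene had no UMI, a floor of 3 counts was used, which covers counting error only. Alternatives were DESeq2 1.42.0, its size factors, no filter on low counts, more than 1500 genes per nucleus, a stricter gate, free RNA subtracted, nuclei thinned to 1500 UMIs, no library block, 1 fit over all classes and each library left out.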

Additional observations from a re-analysis of the deposited data

How the results depend on the processing

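The levels by class held. Of 430 pairs of a member and a class, 131 were higher, between 118 and 132 with a library left out and 126 with no library block, and all 38 named class differences kept their direction and call wherever an alternative gave a value. The age differences did not hold as well. With either aged library left out, which leaves values without a test, all 42 named age results kept their direction. No direction reversed, but of these 42 only Col1a1 in NMSC-like nuclei passed under all 8 alternatives with a test. Col19a1 in NMSC-like nuclei passed under the 6 that gave it an adjusted p, since DESeq2 gave none and the stricter gate left too few counts. The 48 pairs called for age became 25 with nuclei thinned to 1500 UMIs, 9 with DESeq2 and 8 in 1 fit over all classes. DESeq2 gave no adjusted p for 76 of the 345 pairs, 3 of them among the 48 and all 3 in NMSC-like nuclei. In SGC-like nuclei the 14 members called became 0 with the stricter gate, 6 thinned, 5 with DESeq2 and 3 in 1 fit. In NMSC-like nuclei the 10 called became 5 with more than 1500 genes per nucleus, 6 with the stricter gate, 4 thinned, 1 with DESeq2 and 2 in 1 fit. In MSC-like nuclei the 7 called became 3 with the size factors of DESeq2, 11 with the stricter gate, 2 with the DESeq2 test and 0 in 1 fit. In Slc47a1 fibroblast-like nuclei the 3 called became 0 with DESeq2 and 0 in 1 fit. In neuron-like nuclei the 10 called became 0 with free RNA subtracted, 2 thinned, 1 with DESeq2 and 1 in 1 fit. In B lymphocyte-like nuclei the 4 called became 2 with no filter on low counts, 2 with more than 1500 genes per nucleus, 2 with the stricter gate, 1 thinned, 0 with DESeq2 and 1 in 1 fit. In the Pdgfra kind the 0 called became 3 with the stricter gate and 1 with free RNA subtracted, in endothelial-like nuclei 1 with the stricter gate and 1 thinned, and in myeloid-like nuclei 1 with no filter and 1 in 1 fit. For the age difference of a class against the others, the 0 pairs called became 14 with no filter, 1 with the stricter gate, 5 thinned and 1 with classes of 3 or more nuclei, which was added once the data had been seen. The cause of these moves was not tested. Some alternatives filtered the genes anew and so tested other pairs. The share of all genes that passed under each alternative is not given here, so the moves cannot be called particular to the members. No paired analysis was possible because the labels link no adult library to an aged one.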

Other observations

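Sensory neuron kinds differed in further chains, given as levels without a test. Col5a3 was at 102, 149 and 187 CPM in peptidergic nuclei (adult, aged replicate 1, aged replicate 2) and at 15.7, 18.1 and 19.3 CPM in non-peptidergic nuclei. Lama4 was at 103, 102 and 107 CPM in peptidergic and at 120, 113 and 119 CPM in non-peptidergic nuclei, against 19.7, 10.6 and 7.92 CPM in large-fiber nuclei. Col19a1 was at 81.5, 57.3 and 73.7 CPM in large-fiber nuclei and at or under 15.4 CPM in the other kinds.

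Myeloid-like nuclei of aged replicate 1 held 1436 CPM of collagens together, against 636 CPM in the adult library and 185 CPM in aged replicate 2. Their laminins came to 499, 262 and 74.9 CPM in the same order of libraries. The glia markers of this class, at 569.7 CPM in aged replicate 1, 493 CPM in the adult library and 110.2 CPM in aged replicate 2, with a UMI for all 5, had the same order. The mural list had it too, at 46.3, 37.4 and 6.24 CPM. The lists of fibroblasts (106, 306 and 93.6 CPM) and NMSC (583, 605 and 123 CPM) were instead highest in the adult library. The part of these lists in the difference was not tested.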
